A study of Mus musculus with 36 samples.

Results

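Eras encodes embryonic stem cell expressed Ras, a member of the Ras family of small GTPases made in undifferentiated mouse embryonic stem cells (mES cells). The description below covers the Eras row, together with the row of Pcsk1n, the gene that overlaps Eras on the other strand, in all 6 deposited tables, so 2 of the 22979 genes listed in any table and of the 18419 listed in all. Eras was selected on its read count, which rose over 4-fold in the METTL3 degron line after METTL3 was depleted, so every measure of that contrast is given as a description, without a test. Pcsk1n was chosen for its position alone.

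The assay was SLAM-seq. Cells took up the uridine analogue 4-thiouridine (4sU), and the labelled base was then read as C, so that T-to-C mismatches mark new RNA. There were 36 libraries of 3 degron lines, each a single clone. The tagged protein, broken down once dTAG-13 is added, is METTL3 in clone 12D, YTHDC1 in clone Y12H, and ZCCHC8 in clone Z12H. All lines derive from iXist-ChrX mES cells, named iXist-bgl-ChrX129 in the study's methods, of a Cast x 129S cross, carry the same TetOn promoter in place of the Xist promoter on the 129S allele with Bgl stem loops in Xist, and were grown on feeder cells that were removed by preplating before the experiment. Every library, Ctrl or dTAG, received doxycycline at 1 µg/ml for 20 h before a 4 h pulse with 500 µM 4sU, which was taken off at once (0 min) or chased with 50 mM uridine for 90 or 180 min. The dTAG libraries also received dTAG-13 from 2 h before doxycycline, the Ctrl libraries did not, and each of the 18 groups had 2 replicates. For its cultures in general the study states that the wells of a biological replicate came from a common batch of cells, and the labels do not say how the replicates of these libraries were separated, so p-values measure only the spread between these libraries.

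Ras proteins are switches that signal while bound to GTP and stop when GTPase-activating proteins speed up GTP hydrolysis. ERas is unusual in that its own sequence keeps it largely in the GTP-bound form, and it is known in mES cells for activating phosphoinositide 3-kinase (PI3K) and for supporting the tumour-like growth of these cells. Pcsk1n encodes proSAAS, a neuroendocrine secretory protein and inhibitor of the proprotein convertase PCSK1. METTL3 is the methyltransferase that places N6-methyladenosine (m6A) on RNA, YTHDC1 is the nuclear reader of that mark, and ZCCHC8 is the scaffold of the nuclear exosome targeting complex.

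In build mm10, GENCODE M21 places Eras (ENSMUSG00000031160) on the minus strand of the X chromosome at chrX:7924276-7928607, with 2 exons of 139 and 938 bases, and the whole coding sequence, 7924495 to 7925175, lies in exon 2. Pcsk1n (ENSMUSG00000039278) runs on the plus strand at chrX:7919822-7924410 in 3 exons. The last exons overlap tail to tail over 135 bases, 7924276 to 7924410, which are 12.5% of the 1077-base Eras transcript and 6.16% of the 2193-base Pcsk1n transcript, and the overlap ends 84 bases short of the Eras coding sequence. The library kit keeps strand, but whether counting used it is not given in the sources used here, and without strand, reads in the shared bases cannot be told apart.

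The METTL3 complex favours an A within letters such as GGAC, so GGAC and its common form GGACT were searched on the sense strand of the mature transcripts. The study marks the wider m6A motif DRACH on Xist, and its forms without GGAC were not searched. The Eras transcript held 0 matches to GGACT, and 75.7% of the 942 tested genes with transcripts within 20% of its length held at least 1. It held 5 matches to GGAC, or 4.64 per kb, against a median of 4.18 per kb over 14354 tested genes, and 99.5% of the 942 genes of like length held at least 1. The 5 windows are shown because the gene responded to loss of the m6A writer. They are GENCODE M21 transcript sequence, 5′ to 3′ on the minus strand, with GGAC in capitals, and all lie in exon 2, the first 4 in the coding sequence and the last in the 3′ UTR, within the bases shared with Pcsk1n.
chrX:7925131-7925158: gtctagcatcttGGACctgagctccggc
chrX:7924909-7924936: ggaagtggccagGGACaacggaggctac
chrX:7924777-7924804: cccctcgtctctGGACcagttgcagcag
chrX:7924748-7924775: tatggtccacctGGACccctcaccacaa
chrX:7924342-7924369: cgtggtaacatgGGACatccctcattga
A match is a string of letters and not a measured m6A site. Every base in the windows was taken from the reference, and no modification was measured in these libraries.

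Libraries of the METTL3 line held 9547507 to 18652000 reads, those of the YTHDC1 line 10397753 to 16129632 and those of the ZCCHC8 line 5274684 to 10257631. Levels are CPM, the reads of a gene per 1000000 reads of the library, after scaling by trimmed mean of M-values (TMM) over all libraries. The summed level of 11 mES cell markers was 2752 to 4130 CPM over the 36 libraries and none of the 11 was at 0. The 10 feeder fibroblast markers summed to 6.96 to 29.2, the 4 trophoblast markers to 0.425 to 5.19, the 4 endoderm markers to 1.90 to 5.77 and the 3 neuroectoderm markers to 24.1 to 120 CPM, the last mostly Nes. Of the 4 feeder markers with enough reads to be tested, 0 passed in any line by edgeR, with the block or by DESeq2, and 0 had an unadjusted p under 0.05, while 4 of 11 mES cell markers rose in the ZCCHC8 line, where 20.1% of all genes rose and 19.5% fell. Of 3 endoderm markers tested, 1 rose in the METTL3 line, Gata6 by 1.10 on the log2 scale, beside Sox17 at 0.0082 and Gata4 at -0.12, where 11.3% of all genes rose and 8.80% fell. In the ZCCHC8 line 1 of these rose by edgeR, Sox17 by 0.88, and 0 by DESeq2, beside Gata6 at 0.25 and Gata4 at 0.052. Of 3 neuroectoderm markers, 1 rose in the METTL3 line, Pax6 by 1.13, beside Nes at 0.20 and Sox1 at -0.22, and 2 rose in the ZCCHC8 line, Pax6 by 0.82 and Sox1 by 0.58, beside Nes at 0.055. A degron acts on protein, so the mRNA of the target does not show its depletion. Mettl3 mRNA stood at a log2 fold change of 0.013 in its own line (adjusted p = 0.942 by edgeR's quasi-likelihood test), Zcchc8 at 0.070 (adjusted p = 0.436), and Ythdc1 rose by 0.60 (adjusted p = 0.00487). A gene passed where the p-value adjusted over all genes of the fit was under 0.05. Fewer cells that express a gene and less RNA per cell cannot be told apart in bulk RNA.

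Eras was the strongly raised member in the METTL3 line. Its Ctrl reads at 0, 90 and 180 min were 263, 493 and 160 in replicate 1 and 288, 161 and 113 in replicate 2. The dTAG reads were 1312, 1803 and 729 in replicate 1 and 1249, 970 and 779 in replicate 2. In CPM, the Ctrl libraries lay at 11.3 to 29.3 with a median of 20.0, and the dTAG libraries at 62.3 to 107 with a median of 91.9. The groups did not overlap, which held for 7.97% of the 14413 genes tested in this line. All 6 pairs of the same chase time and replicate were higher with dTAG-13, by 3.28-fold to 6.18-fold. The log2 fold change over the 6 Ctrl and 6 dTAG libraries was 2.19 (SE 0.18), or 4.58-fold, and 13 of the 14413 tested genes had a larger one.

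The rule asked for a rise over 4-fold, a log2 fold change of 2, which 24 of 14413 tested genes (0.167%) passed. Just inside lay Gm26841 at 2.05 and Kpna7 at 2.01, and just outside lay Tmem37 at 1.98 and Tinagl1 at 1.97.

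**Figure D1:**
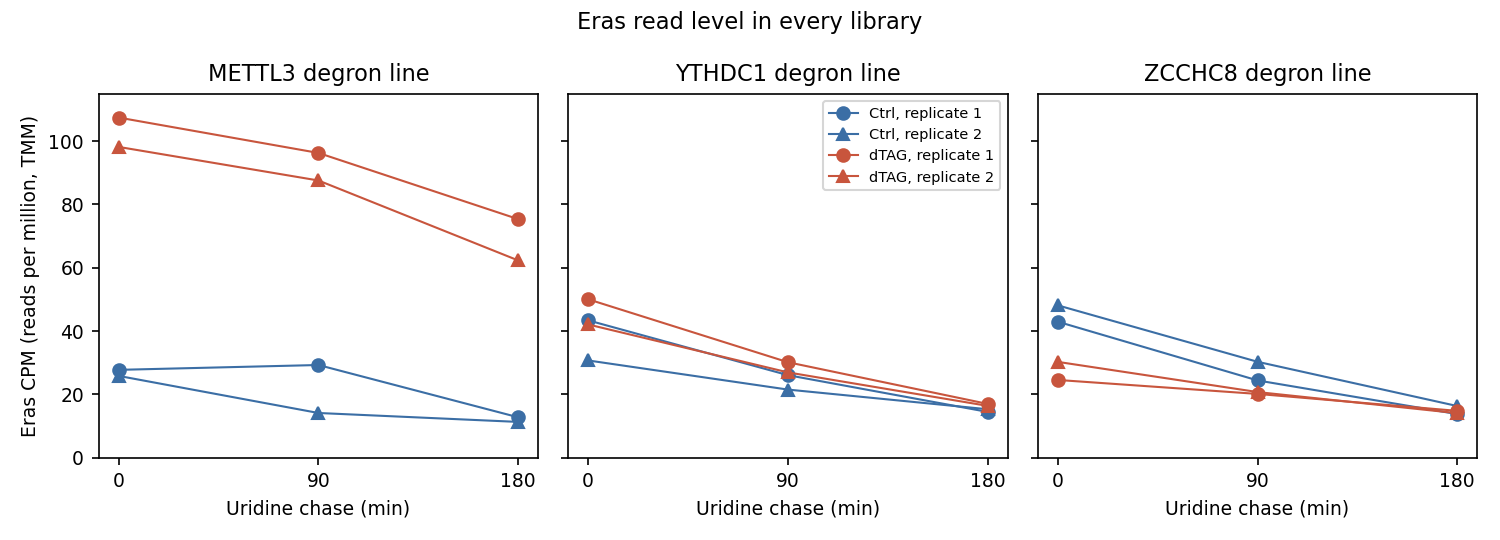
Eras CPM (y, TMM-scaled) against chase time (x, min) in each of the 36 libraries, with Ctrl in blue, dTAG in red, circles for replicate 1 and triangles for replicate 2, and lines that join the libraries of one arm and replicate. In the METTL3 line the dTAG libraries sit at 62.3 to 107 and the Ctrl libraries at 11.3 to 29.3, while in the other lines both arms lie at 13.8 to 50.0.

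Eras stood slightly higher after YTHDC1 depletion, by a difference that did not pass the test without a block. Ctrl libraries held 43.4, 26.1 and 14.5 CPM at 0, 90 and 180 min in replicate 1, and 30.7, 21.5 and 15.3 in replicate 2. The dTAG libraries held 50.0, 30.2 and 17.0 in replicate 1 and 42.1, 27.0 and 16.4 in replicate 2. Each of the 6 pairs was higher with dTAG-13, by 1.07-fold to 1.37-fold, and the arms overlapped, since chase times differed more than arms. The log2 fold change was 0.25 (SE 0.10) and did not pass the test (adjusted p = 0.206, edgeR), where 5.25% of 14199 genes passed, 2.48% of all by rising and 2.77% by falling. With the replicate number as a block it was 0.26 (SE 0.07) and passed (adjusted p = 0.0114), where 27.3% of genes passed. Without replicate 1 it was 0.32 and also passed (adjusted p = 0.00782). Without replicate 2 it was 0.20 and did not pass (adjusted p = 0.228, edgeR). With the chase libraries summed it was 0.29 and did not pass, where 0 of 15513 genes did.

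Eras fell after ZCCHC8 depletion. Ctrl libraries held 43.0, 24.4 and 13.8 CPM in replicate 1 and 48.1, 30.3 and 16.3 in replicate 2, and dTAG libraries held 24.6, 20.2 and 14.8 in replicate 1 and 30.3, 20.8 and 14.1 in replicate 2. The arms were apart at 0 min, where both pairs were lower with dTAG-13, by 0.81 and 0.67 on the log2 scale. At 180 min the pairs stood at 0.10 and -0.21, so the arms were within the spread of the replicates by then. The log2 fold change was -0.39 (SE 0.10, adjusted p = 0.00332, edgeR), lower in 5 of 6 pairs. Of the 13962 genes tested in this line 39.6% passed in either direction and 19.5% passed by falling. Without replicate 2 the log2 fold change was -0.32 and did not pass (adjusted p = 0.122).

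The response of Eras in the ZCCHC8 line stood at -0.67 against that in the YTHDC1 line on the log2 scale (SE 0.19, adjusted p = 0.0193, edgeR interaction), where 14.4% of 15105 genes passed. Without replicate 2 the difference was -0.56 and did not pass (adjusted p = 0.110). As a description, the METTL3 response exceeded that of the YTHDC1 line by 1.92 (SE 0.19) on the log2 scale, and the ZCCHC8 response stood at -2.58 (SE 0.20) against that of the METTL3 line.

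Without dTAG-13, the median Eras level over 6 libraries was lowest for METTL3 at 20.0 CPM, then 23.8 for YTHDC1 and 27.4 for ZCCHC8. Ctrl libraries of the ZCCHC8 line were above those of the METTL3 line by 0.46 on the log2 scale (SE 0.15, adjusted p = 0.0275, edgeR), where 30.7% of 14267 genes differed, but without replicate 2 the difference was 0.14 and did not pass (adjusted p = 0.505). Neighbours in this order did not differ beyond their spread. The METTL3 line stood at -0.29 against the YTHDC1 line (adjusted p = 0.333, edgeR), where 2.43% of genes differed, and the ZCCHC8 line at 0.17 (adjusted p = 0.395), where 13.6% did. Both of these passed without replicate 1, at -0.40 (adjusted p = 0.00119) and 0.48 (adjusted p = 1.7e-05), and without replicate 2 the comparison of the ZCCHC8 and YTHDC1 lines stood at -0.072.

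The total level of Eras was lower at 180 than at 0 min in both arms of every line. In Ctrl libraries the 180 min level was 46.1% and 43.8% of the 0 min level in replicates 1 and 2 of the METTL3 line. The YTHDC1 line kept 33.4% and 49.9%, and the ZCCHC8 line 32.1% and 34.0%. With dTAG-13 the METTL3 line kept 70.1% and 63.5%, the YTHDC1 line 34.0% and 38.9%, and the ZCCHC8 line 60.3% and 46.5%. The dTAG libraries of the METTL3 line thus kept the largest share of their level, from a higher start. Among the genes tested in each line, 0.115% to 3.07% had a lower log2 ratio of 180 to 0 min than Eras in the 6 Ctrl series. The median of that log2 ratio was -0.036 to 0.0078 over all genes, -0.24 to -0.023 over X-linked genes and -0.56 to -0.23 over the tested genes within 200 kb of Eras. These are descriptions, and chase time and time since doxycycline was added cannot be told apart.

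GRAND-SLAM, the authors' program for SLAM-seq, gives for each gene the share of its reads that is new RNA, as the most probable value (MAP) of a posterior. At the end of the pulse this new-to-total ratio of Eras was 0.452 (5% to 95% posterior range 0.399 to 0.507) and 0.527 (0.476 to 0.577) in replicates 1 and 2 of the METTL3 Ctrl libraries. With dTAG-13 it was 0.211 (0.193 to 0.231) and 0.164 (0.148 to 0.183). Over all chase times the Ctrl ratios were 0.441 to 0.621 and the dTAG ratios 0.164 to 0.292, so the groups did not overlap, and for 5.28% of 11366 genes every dTAG ratio lay below every Ctrl ratio. The ratio at 0 min, fitted as log2 MAP over the 12 libraries, differed by -1.49 (SE 0.18) on the log2 scale, while the median over the 11366 genes was -0.11, and 11349 genes had a higher value than Eras.

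The raw conversions gave the same order. Of the T positions covered by Eras reads in the METTL3 line, 2.32% to 4.46% were read as C in Ctrl libraries and 1.33% to 2.23% in dTAG libraries. At 0 min the rates were 3.25% (95% Wilson interval 2.91% to 3.65%) and 3.64% (3.25% to 4.07%) in Ctrl and 1.46% (1.34% to 1.58%) and 1.44% (1.33% to 1.57%) in dTAG libraries. The intervals leave out all but counting error, because PCR copies are not separate molecules.

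In the other lines the ratio at 0 min did not pass the test. Libraries of the YTHDC1 line gave 0.437 and 0.472 in Ctrl and 0.439 and 0.425 in dTAG libraries (log2 difference -0.11, SE 0.17, adjusted p = 1.00, limma), where 0.0173% of 11592 genes passed. Those of the ZCCHC8 line gave 0.431 and 0.415 in Ctrl and 0.542 and 0.513 in dTAG libraries (log2 difference 0.33, SE 0.18, adjusted p = 0.890, limma), where 0.0462% of 10820 genes passed. Both dTAG values of the ZCCHC8 line were above both Ctrl values at 0 and at 90 min, and not at 180 min. This order rests on 2 libraries in each arm, and the share of all genes that show it was not counted. The raw T-to-C rates did not show it. At 0 min they were 4.28% and 3.58% in Ctrl and 4.51% and 4.00% in dTAG libraries. At 90 min they were 4.07% and 4.27% in Ctrl and 3.93% and 4.26% in dTAG libraries. By T-to-C rate the log2 difference at 0 min in the ZCCHC8 line was 0.14 (SE 0.22, adjusted p = 0.699, limma). At 0 min in the METTL3 line, 32.3% and 39.4% of genes had a lower ratio than Eras in the Ctrl libraries of replicates 1 and 2, and 7.50% and 4.58% did in the dTAG libraries.

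**Figure D2:**
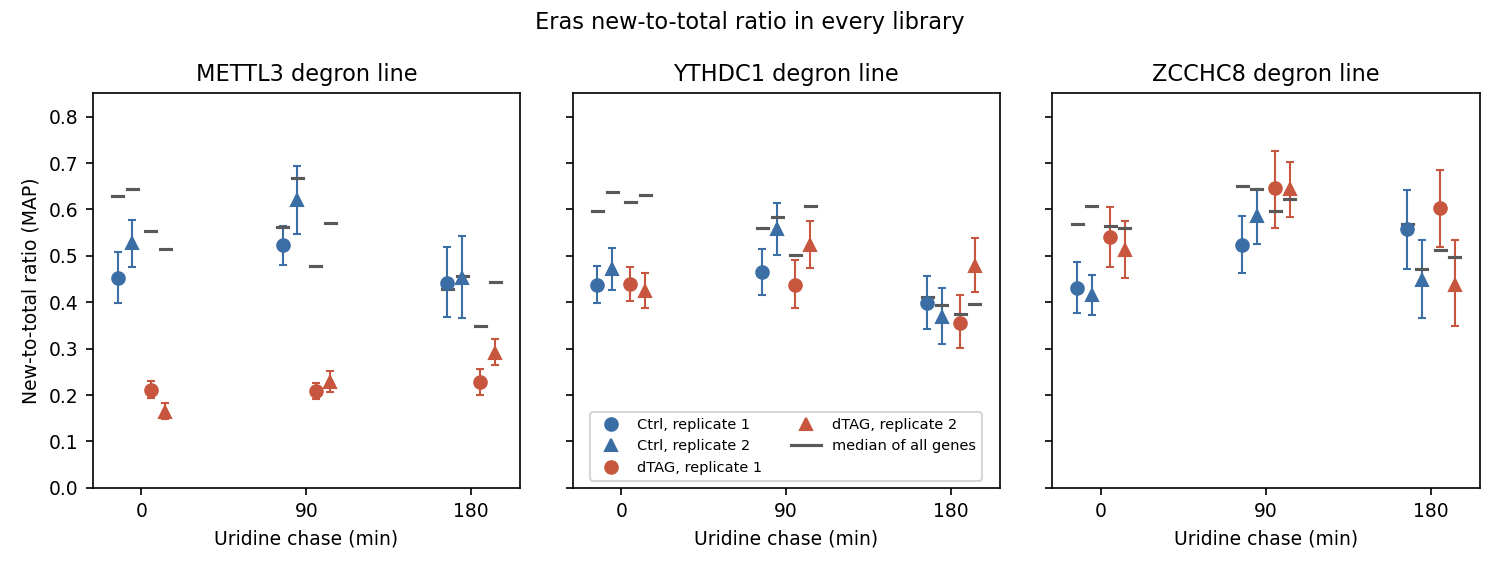
New-to-total ratio of Eras (y, MAP, a fraction) at each chase time (x, min; points are offset to the sides) in the 36 libraries, with bars for the 5% to 95% posterior range and grey dashes for the median over all genes fitted in that library. In the METTL3 line the dTAG points sit at 0.164 to 0.292, below the Ctrl points at 0.441 to 0.621, while the arms overlap in the YTHDC1 line.

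The level times the ratio gives labelled RNA, and the rest is unlabelled RNA, made before the pulse or during the chase. Unlabelled Eras in the METTL3 line was 5.36 to 15.2 CPM in Ctrl and 44.1 to 84.7 in dTAG libraries, and the labelled level 5.13 to 15.3 in Ctrl and 16.1 to 22.7 in dTAG libraries. Neither pair of groups overlapped, but the share of all genes for which this held was not counted. Both levels also contain the read count on which Eras was selected. The log2 fold change was 2.81 (SE 0.21) for unlabelled RNA, the highest of the 14346 genes fitted, and 0.99 (SE 0.20) for labelled RNA, with 107 genes higher. The medians over all fitted genes were 0.16 and -0.14. At 0 min alone, the values were 2.59 for unlabelled and 0.55 for labelled RNA, and the labelled level was 12.6 and 13.6 in Ctrl and 22.7 and 16.1 CPM in dTAG libraries. Since labelled RNA at 0 min is what was made in 4 h and not yet lost, it depends on loss during the pulse as well as on synthesis.

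**Figure D3:**
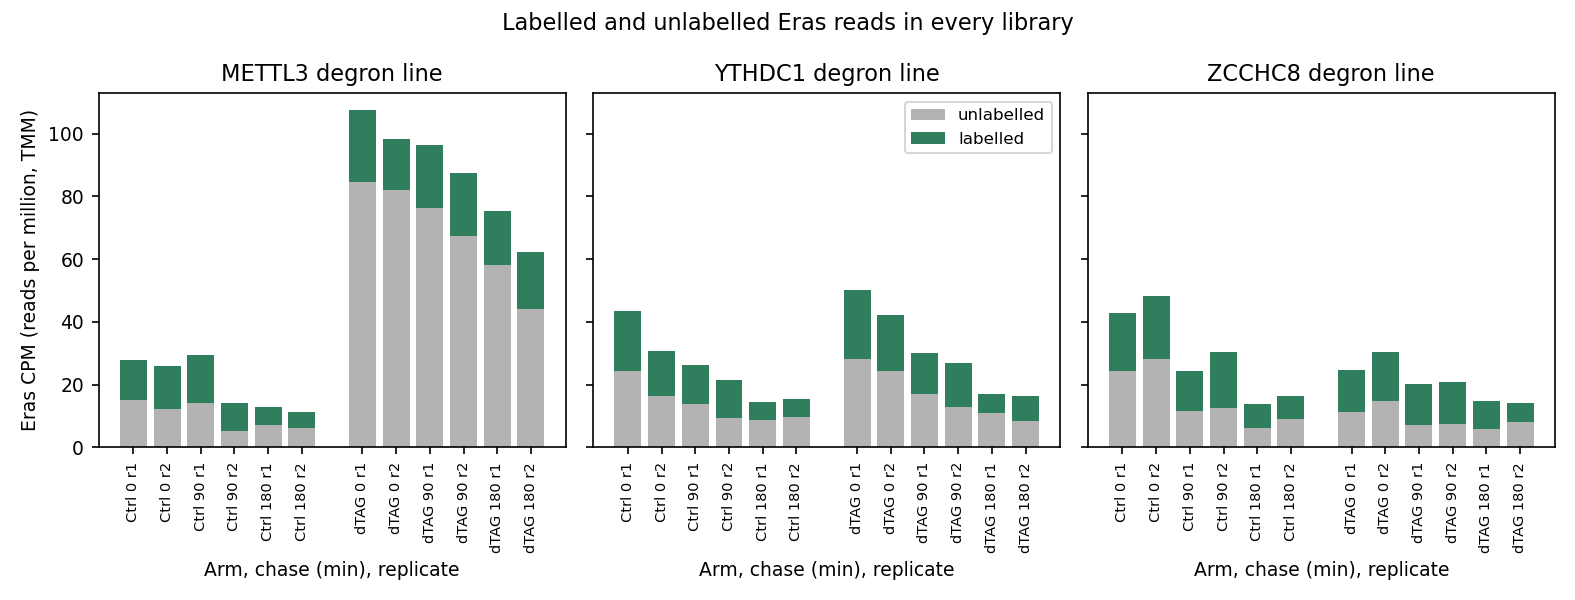
Eras CPM (y, TMM-scaled) split into unlabelled (grey) and labelled (green) reads by the new-to-total ratio, 1 bar for each library, ordered by arm, chase time in min and replicate (r1, r2). In the METTL3 line the grey part is 44.1 to 84.7 in dTAG bars and 5.36 to 15.2 in Ctrl bars, a larger difference than that of the green part.

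After ZCCHC8 depletion the fall that passed was in unlabelled RNA. Unlabelled Eras was 6.11 to 28.2 CPM in Ctrl and 5.88 to 14.7 in dTAG libraries, lower with dTAG-13 in 6 of 6 pairs, and the log2 fold change was -0.55 (SE 0.16, adjusted p = 0.0192, limma), where 20.1% of 13865 genes passed and 6.07% passed by falling. It did not pass with either replicate left out (adjusted p = 0.145 and 0.141). Labelled Eras was lower in 4 of 6 pairs, with a log2 fold change of -0.15 (SE 0.12) that did not pass (adjusted p = 0.369, where 25.9% of genes passed). For YTHDC1 labelled RNA stood at 0.22 (SE 0.11, adjusted p = 0.376, limma), where 2.29% of genes passed, and unlabelled RNA at 0.26 (SE 0.15, adjusted p = 0.489), where 0.833% did. The labelled value there was 0.33 and passed without replicate 1 (adjusted p = 0.0496).

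During the chase, the new-to-total ratio falls only where labelled RNA falls by a larger share than the total, so label can be lost at a flat ratio. No change of the Eras ratio passed the test by MAP. The slope of the log2 MAP ratio in Ctrl libraries was -0.043 per h for METTL3 (SE 0.066, adjusted p = 0.597, limma), -0.083 for YTHDC1 (SE 0.062, adjusted p = 0.244) and 0.080 for ZCCHC8 (SE 0.065, adjusted p = 0.279). Of all fitted genes 54.6%, 66.8% and 67.0% had a changed ratio in these lines, in that order, with median slopes of -0.11, -0.14 and -0.012 per h. By T-to-C rate in place of MAP, the slope in the YTHDC1 line was -0.21 per h and passed (adjusted p = 0.00791). In the same Ctrl libraries labelled Eras at 180 min was 30.4% to 44.9% of its 0 min level. Its total was 32.1% to 49.9%, so by then both had fallen by much the same share. The ratio did not follow a straight line in between. Its Ctrl mean over 2 replicates at 0, 90 and 180 min was 0.489, 0.572 and 0.447 for METTL3. For YTHDC1 it was 0.455, 0.512 and 0.383, and for ZCCHC8 0.423, 0.555 and 0.502. Labelled Eras at 90 min was 64.0% to 122% of its 0 min level in these Ctrl libraries.

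With dTAG-13 the slope in the METTL3 line was 0.16 per h, 0.20 (SE 0.093) above that in Ctrl libraries (0.35 without replicate 1 and 0.047 without replicate 2), where 0.475% of 11366 genes had a changed slope, and labelled Eras at 180 min was 75.5% and 113% of its 0 min level in replicates 1 and 2. For YTHDC1 the slopes of the arms differed by 0.062 (SE 0.088, adjusted p = 1.00, limma) and in the ZCCHC8 line by -0.092 (SE 0.092, adjusted p = 1.00). No gene passed this test in either of these lines (0 of 11592 and 0 of 10820), and 240 and 259 genes had an unadjusted p below 0.05.

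Pcsk1n was a low gene with a large difference between replicates. Replicate 1 of the METTL3 line held 14, 10 and 13 reads in Ctrl and 8, 11 and 7 in dTAG libraries, and replicate 2 held 103, 80 and 54 in Ctrl and 125, 105 and 81 in dTAG libraries. Replicate 1 of the YTHDC1 line held 52, 13 and 12 in Ctrl and 20, 20 and 24 in dTAG libraries, and replicate 2 held 137, 137 and 95 in Ctrl and 113, 119 and 133 in dTAG libraries. All 12 libraries of the ZCCHC8 line lay between 49 and 105 reads. Replicate 1 was thus below replicate 2 throughout in the METTL3 and YTHDC1 lines and not in the ZCCHC8 line. The lists of other cell types moved the same way, since the median summed level of each of the 4 lists was lower in replicate 1 than in replicate 2 in both arms of these lines. In Ctrl libraries of the METTL3 line these medians were 11.6 against 23.0 CPM for feeder, 1.16 against 3.11 for trophoblast, 1.92 against 3.34 for endoderm and 61.2 against 83.4 for neuroectoderm markers. In those of the YTHDC1 line they were 9.52 against 15.2, 0.756 against 2.03, 2.38 against 3.40 and 54.0 against 66.6. The mES cell markers went the other way, at 3272 against 2828 and 3478 against 3294 CPM. Over the 18 Ctrl libraries the median levels of the 10 feeder markers ran from 0 for Fap and Lum to 4.69 CPM for Col1a1 and 5.96 for Thy1. The part of other cells or of a replicate's culture in the Pcsk1n values was not tested.

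**Figure D4:**
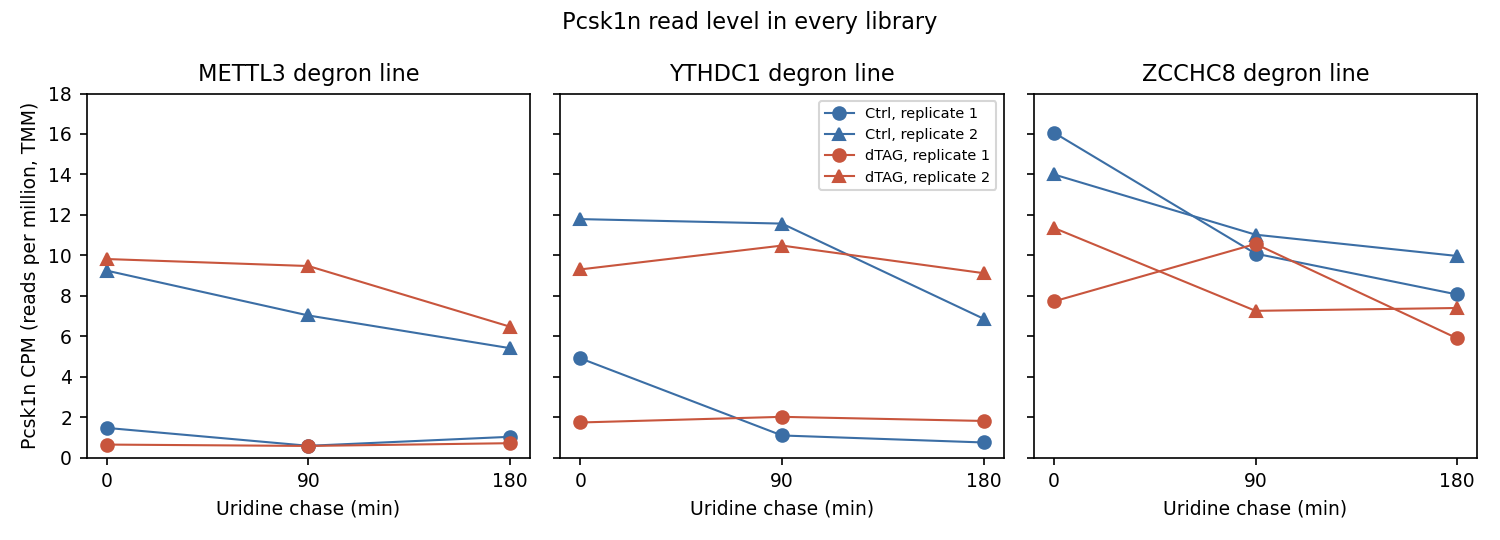
Pcsk1n CPM (y, TMM-scaled) against chase time (x, min) in each of the 36 libraries, with Ctrl in blue, dTAG in red, circles for replicate 1 and triangles for replicate 2. In the METTL3 line replicate 1 sits at 0.587 to 1.48 and replicate 2 at 5.42 to 9.82, with both arms together in each.

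The response of Pcsk1n in the METTL3 line did not pass the test. Its log2 fold change was 0.20 (SE 0.87, adjusted p = 0.904, edgeR), with 3 of 6 pairs higher, where 20.1% of 14413 genes passed. It was -0.51 without replicate 2. With the replicate number as a block it was 0.093 (SE 0.18, adjusted p = 0.702, edgeR), where 24.4% of genes rose and 24.1% fell. The SE without the block thus held much of the difference between replicates. In the 3 dTAG libraries of replicate 1, Pcsk1n held 7 to 11 reads while Eras held 729 to 1803, so at most 11 reads of the raised Eras transcript could lie in the Pcsk1n count of any of these 3 libraries. No such small limit holds in replicate 2, where Pcsk1n was higher with dTAG-13 in all 3 pairs, by 0.087, 0.43 and 0.26 on the log2 scale at 0, 90 and 180 min, and the part of Eras reads in those counts was not tested. In the YTHDC1 line the log2 fold change of Pcsk1n was -0.021 (SE 0.70, adjusted p = 0.995). With the block it was -0.050 there (SE 0.26, adjusted p = 0.914, edgeR), where 27.3% of genes passed. Pcsk1n fell in the ZCCHC8 line by 0.42 on the log2 scale (SE 0.13, adjusted p = 0.00958, edgeR), from 8.07 to 16.1 CPM in Ctrl to 5.90 to 11.4 in dTAG libraries, lower in 5 of 6 pairs, and without replicate 2 it did not pass (adjusted p = 0.116). Its unlabelled level fell there by 0.44 (SE 0.15, adjusted p = 0.0457, limma), which did not pass without replicate 1 (adjusted p = 0.228) or replicate 2 (adjusted p = 0.276), with a pseudocount of 0.1 (adjusted p = 0.0509) or at 0 min alone (adjusted p = 0.122). Its labelled level stood at -0.065 (SE 0.24, adjusted p = 0.877).

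No difference of the Pcsk1n response between lines passed the test, with log2 differences of 0.21 (SE 0.98, adjusted p = 0.917) for METTL3 minus YTHDC1, -0.43 (SE 0.96, adjusted p = 0.855) for ZCCHC8 minus YTHDC1 and -0.65 (SE 0.98, adjusted p = 0.697, edgeR) for ZCCHC8 minus METTL3. Of all genes 20.6%, 14.4% and 23.7% passed these tests. With the replicate number as a block the log2 differences were 0.16 (SE 0.30), -0.42 (SE 0.28) and -0.58 (SE 0.30), in that order. None of them passed (adjusted p = 0.708, 0.255 and 0.115, edgeR). Without replicate 1 the last was -0.68 and passed (adjusted p = 0.00953). The Ctrl level was 1.49 higher on the log2 scale in the ZCCHC8 than in the METTL3 line (SE 0.60, adjusted p = 0.0665, edgeR) and 0.93 higher than in the YTHDC1 line (SE 0.58, adjusted p = 0.243). With the replicate number as a block these were 1.82 (adjusted p = 0.00523) and 1.24 (adjusted p = 0.0369). Leaving out replicate 1 gave 0.68 for the first (adjusted p = 3.14e-05) and 0.22 for the second (adjusted p = 0.179), and leaving out replicate 2 gave 3.50 (adjusted p = 3.24e-05) and 2.54 (adjusted p = 0.000233, edgeR). The METTL3 line stood at -0.57 against the YTHDC1 line (SE 0.60, adjusted p = 0.718), and at -0.46 without replicate 1, which passed (adjusted p = 0.00765). Pcsk1n had enough reads for a fit of the ratio in the ZCCHC8 line alone, where its MAP ratio was 0.0686 to 0.202 in Ctrl and 0.0324 to 0.233 in dTAG libraries, under the Eras ratio in every library of that line. The ratio at 0 min (log2 difference 0.45, SE 0.83, adjusted p = 0.997, limma), the Ctrl slope (0.099 per h, SE 0.30, adjusted p = 0.788) and the difference of slopes (-0.12 per h, SE 0.43, adjusted p = 1.00) did not pass.

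Eras and Pcsk1n lie in a gene-dense stretch of the X chromosome, and 20 further listed genes, Pcsk1n among them, lie within 200 kb of Eras. Of the 19 tested, 0 rose and 2 fell in the METTL3 line by edgeR, where 11.3% and 8.80% of all genes did. An unadjusted p under 0.05 was reached by 0 upward and 3 downward, and DESeq2 also called 0 and 3. Kcnd1, a potassium channel, fell by 0.72 (adjusted p = 0.0462) and Slc35a2, a UDP-galactose transporter, by 0.36 (adjusted p = 0.0356, edgeR). The median log2 fold change over the 19 was 0.020, against 0.0056 over all genes. With the replicate block 0 rose and 6 fell, where 24.4% and 24.1% of genes did. The closest neighbour after Pcsk1n, Hdac6, a cytoplasmic deacetylase whose gene lies 1513 bases from Eras, stood at -0.11 (SE 0.10). After YTHDC1 depletion 0 of 19 passed by edgeR, where 1 upward and 2 downward had an unadjusted p under 0.05 and DESeq2 called 1, and 4 rose and 3 fell with the block, where 13.2% and 14.1% of genes did.

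Of these 19 genes 16 fell and 1 rose after ZCCHC8 depletion, where 19.5% and 20.1% of all genes did. Their median log2 fold change was -0.55, against -0.22 over X-linked genes and -0.00347 over all genes. Hdac6 fell by 0.32 (SE 0.04, adjusted p = 1.2e-06), and Tfe3, a transcription factor of lysosomal genes, fell by 0.78 (SE 0.07, adjusted p = 1.51e-09, edgeR). Was, the Wiskott-Aldrich actin regulator, fell by 1.09 and Glod5 by 0.93, the largest falls of the 19. Suv39h1, a histone H3 lysine methyltransferase, rose by 0.41 (SE 0.06). Eras, at -0.39, lay within this range, and 2 of the 16 falls, those of Hdac6 and Wdr13, were smaller. Pim2, a kinase, at -0.16 (adjusted p = 0.133), and Gata1, a blood transcription factor, at 0.45 (adjusted p = 0.0707), did not pass. Some of these genes overlap, such as Wdr45 with Gm45208, and their counts may share reads. Xist, the noncoding RNA induced in all libraries, was higher in dTAG than in Ctrl libraries of the ZCCHC8 line by 0.78 (adjusted p = 0.000216, edgeR) and of the METTL3 line by 0.51 (adjusted p = 0.0246), and stood at -0.27 in the YTHDC1 line (adjusted p = 0.279). Its part in the values of Eras and its neighbours was not tested.

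**Figure D5:**
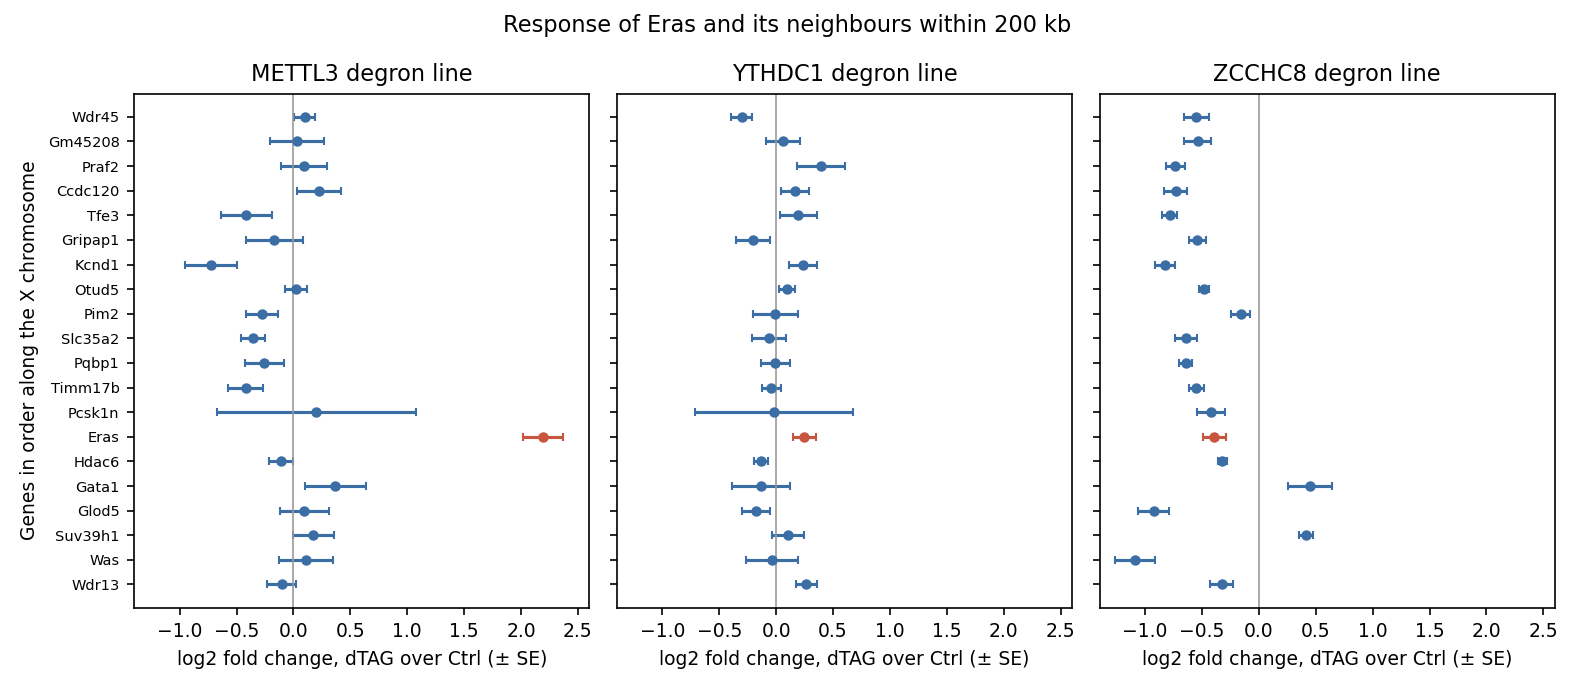
Log2 fold change of dTAG over Ctrl libraries (x, with SE bars) of Eras (red) and the 19 tested genes within 200 kb (blue) in their order along the X chromosome (y), in the 3 lines. In the METTL3 line Eras stands at 2.19 while the others lie between -0.72 and 0.37, and in the ZCCHC8 line Eras at -0.39 lies among 17 neighbours below 0.

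Among the Ras family, Eras was a well expressed member. Per kb of exon, its median over the 18 Ctrl libraries was 23.3 CPM, which placed it at rank 5 of 27 family members measured, after Rap1b at 47.9, Rala at 34.2, Nras at 29.3 and Hras at 28.1 and before Rheb at 18.9. The lowest in these Ctrl libraries were Rasl10a at 0.235 and Rasl12 at 0.146. In Ctrl libraries of the METTL3 line alone the Eras median was 18.6 CPM per kb, also after Rheb at 20.6 and Rap1a at 18.8. In dTAG libraries of that line it was 85.3 CPM per kb, the highest of the 27, with Rap1b next at 45.0.

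The other family members moved in both directions. Of 25 tested in the METTL3 line, 1 rose and 4 fell, where 11.3% and 8.80% of all genes did, and their median log2 fold change was 0.15, against 0.0056 over all genes, with values from -1.07 for Diras2 to 0.77 for Rerg, which did not pass. Mras, a relative of the classical Ras proteins, rose by 0.48 (SE 0.11, adjusted p = 0.0105, edgeR), and Diras2, Rasl11b, Rap2a and Rala fell by 1.07, 0.59, 0.55 and 0.41. Hras at 0.32 (adjusted p = 0.162) and Nras at 0.24 (adjusted p = 0.542, edgeR) did not pass. With the replicate block 6 rose and 7 fell, where 24.4% and 24.1% of all genes did.

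After YTHDC1 depletion 0 of 23 Ras family members passed by edgeR, where 2 upward and 1 downward had an unadjusted p under 0.05 and DESeq2 called 1, where edgeR called 2.48% of all genes higher and 2.77% lower. With the block 4 rose and 1 fell, where 13.2% and 14.1% of genes did. After ZCCHC8 depletion 2 of 23 rose, Nras by 0.27 (SE 0.05) and Diras1 by 0.74 (SE 0.28), and 7 fell, where 20.1% and 19.5% of genes did, with a median of -0.090. The 2 largest falls were those of Rala, which acts in exocytosis, by 0.77 (SE 0.06, adjusted p = 7.1e-11) and of its paralogue Ralb by 0.47 (SE 0.07, adjusted p = 1.52e-05, edgeR). Hras also fell there, by 0.27 (SE 0.05).

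Of the Ras regulators, 3 of 18 rose and 1 fell in the METTL3 line, where 11.3% and 8.80% of all genes did. Spred1, an inhibitor of Ras signalling, rose by 0.82 (adjusted p = 0.0019) and Rasgrp1, an exchange factor that loads GTP, by 0.76 (adjusted p = 0.0476), and Rasa3, a GTPase-activating protein, fell by 0.71 (adjusted p = 0.00247, edgeR). With the block 8 rose and 4 fell, where 24.4% and 24.1% of genes did. For YTHDC1 1 of 19 passed, Nf1, which encodes the GTPase-activating protein neurofibromin, by a rise of 0.32 (adjusted p = 0.0243, edgeR), where 2.48% of genes rose and 2.77% fell. The block gave 3 rises and 4 falls, where 13.2% and 14.1% of genes rose and fell. For ZCCHC8 5 of 18 rose and 5 fell, where 20.1% and 19.5% of genes did, with Spred3 and Rasgrp3 the largest rises at 1.38 and 1.14, and Rasa3 and Dab2ip the largest falls at -0.60 and -0.28.

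Of the PI3K, AKT and mTOR pathway, which ERas is known to activate, 3 of 34 rose and 3 fell in the METTL3 line, where 11.3% and 8.80% of all genes did, with a median of -0.051. Phlpp2, a phosphatase that acts on AKT, rose by 0.80 and Pik3r1, the PI3K regulatory subunit, by 0.52, while Mlst8, a subunit of both mTOR complexes, fell by 0.61 and Pik3cb, a catalytic subunit, by 0.43. With the block 4 rose and 12 fell, where 24.4% and 24.1% of genes did. In the YTHDC1 line 1 of 34 passed, Pik3r3, by a rise of 0.43 (adjusted p = 0.033, edgeR), where 2.48% of genes rose and 2.77% fell, and with the block 6 rose and 2 fell, where 13.2% and 14.1% did. In the ZCCHC8 line 6 rose and 10 fell, where 20.1% and 19.5% did, with Foxo4 at 0.48 and Pik3r3 at 0.44 the largest rises and Deptor at -0.53 and Phlpp1 at -0.40 the largest falls.

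Of the proprotein convertases and their partners, Pcsk1n among them, 3 of 9 tested rose and 0 fell in the METTL3 line by edgeR, where 11.3% and 8.80% of all genes did, and 4 upward and 0 downward had an unadjusted p under 0.05, while DESeq2 called 3 and 0. Cpe, carboxypeptidase E of neuroendocrine granules, rose by 0.81 (adjusted p = 0.0062) and Mbtps1, the site-1 protease, by 0.40 (adjusted p = 0.0141, edgeR). With the block 5 rose, where 24.4% of genes did. In the YTHDC1 line 0 of 9 passed by edgeR, 0 had an unadjusted p under 0.05, DESeq2 called 0, and 1 rose with the block, where 13.2% of genes did. In the ZCCHC8 line 3 of 9 fell, where 19.5% of genes did, Pcsk6 by 0.83, Pcsk1n by 0.42 and Furin by 0.41. Pcsk1, the convertase that proSAAS inhibits, stood at 0.43 (SE 0.30), 0.30 (SE 0.27) and -0.16 (SE 0.24) in the METTL3, YTHDC1 and ZCCHC8 lines and did not pass in any.

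The 5 genes whose pattern was most like that of Eras were named by Pearson's r of log2 CPM over the 36 libraries, centred within each line and replicate, among 14936 genes. They were Umps (r = 0.975), a pyrimidine synthesis enzyme, Adgra3 (r = 0.955), an adhesion receptor, Pus7l (r = 0.949), a pseudouridine synthase-like protein, Ddx24 (r = 0.948), an RNA helicase, and Mrpl15 (r = 0.948), a mitochondrial ribosomal protein. All 5 lie on autosomes, and they rose in the METTL3 line by 0.71, 1.22, 1.35, 0.40 and 0.64 on the log2 scale, in that order, less than Eras. These libraries share the METTL3 contrast and the chase times, so r describes the libraries only. For Pcsk1n r was 0.364.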

How the data were processed

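The labels gave 36 libraries in 18 groups of 2. The authors discarded ribosomal reads, aligned the rest to mm10 with STAR 2.5.2b, keeping unique alignments under a mismatch limit, and ran GRAND-SLAM once for each line and replicate, on 6 libraries. The gene annotation came from UCSC, and its release, the GRAND-SLAM version and any filter are not given in the sources used here. A mismatch limit can lower the count of strongly labelled RNA. The deposited counts are raw reads per gene. The deposited new-to-total ratio is a fraction from GRAND-SLAM, estimated separately in each of the 6 tables. The deposited conversions and coverage are sums of converted and covered T positions over reads, kept to a few significant digits. Other per-library columns, 180 in number, were not used, and a gene missing from a table was counted as 0.

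Reads were fitted over all genes passing edgeR's filterByExpr with edgeR 4.0.16 (quasi-likelihood test, TMM, chase time as covariate within a line), and log2 MAP ratios (minimum 20 reads, minimum ratio 0.02) and log2 labelled and unlabelled levels (pseudocount 0.5), with limma 3.58.1. P-values were adjusted by Benjamini-Hochberg over all genes of a fit, with a threshold of 0.05. The members, lists and tests were chosen with earlier results of these data known. The named genes were Eras, Pcsk1n, the 5 genes most like Eras, tested genes within 200 kb, up to 2 rises and 2 falls past the threshold in each list and line, and Ras family genes measured, given one by one or by range. Some genes of the lists count in the totals and are not reported here by name. Mbtps1, Furin, Pcsk1, Fap, Lum, Col1a1, Thy1, Nes, Gata4, Gata6, Pax6, Sox1 and Sox17 fall outside that rule and were picked after their values were seen. Positions came from GENCODE M21 (mm10), which matched 22925 of 22979 genes.

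Replicates differed by more than sampling noise (chi-square per degree of freedom 2.45 to 77.9). Deviations of same-numbered Ctrl and dTAG libraries from their group means correlated at r = 0.587 to 0.755 for METTL3, 0.651 to 0.712 for YTHDC1 and 0.175 to 0.187 for ZCCHC8, and the study states that a replicate shared a batch of cells, so the numbers pair the libraries and a fit with the number as a block was run as well. Scripts were tested on simulated counts. Alternatives were DESeq2 1.42.0, its size factors, no filter, the block, each replicate left out, summed chase libraries, the posterior mean, the T-to-C rate, at least 100 reads, a pseudocount of 0.1 and the 0 min libraries alone.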

Additional observations from a re-analysis of the deposited data

Results flagged for a closer look

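The read count response of Eras differed between the ZCCHC8 and YTHDC1 lines by the test of the difference itself, with a log2 difference of -0.665 (SE 0.194, adjusted p = 0.0193, edgeR interaction), but the difference did not pass without replicate 2 (-0.56, adjusted p = 0.110). Eras was lower with dTAG-13 in 5 of 6 pairs of the ZCCHC8 line and higher in 6 of 6 of the YTHDC1 line. Unlabelled Eras moved in opposite directions in every pair of the METTL3 and ZCCHC8 lines, with a mean log2 ratio over 6 pairs of 2.86 in the METTL3 line and -0.627 in the ZCCHC8 line, and this difference was not tested, since Eras was chosen for its METTL3 response. Groups held 2 libraries, so single libraries were not screened as outliers.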

How the results depend on the processing

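The log2 fold change of Eras reads in the METTL3 line lay between 2.11 and 2.31 over 7 alternatives, its unlabelled RNA between 2.59 and 3.00 and its labelled RNA between 0.55 and 1.05. Numbers of genes with a changed read count moved most. With the replicate block they were 6994 in the METTL3 line (2898 without it) and 3875 in the YTHDC1 line (746), DESeq2 called 1156 in the YTHDC1 line, and with the chase libraries summed edgeR called 0 in both, with 1433 of 15895 and 696 of 15513 genes at an unadjusted p under 0.05. Leaving out 1 replicate gave 5717 to 7472 for METTL3, 1335 to 3555 for YTHDC1 and 3409 to 5091 for ZCCHC8 (5533 with both). The block moved Eras in the YTHDC1 line to 0.26 and the Ctrl level of Pcsk1n to 1.24 for ZCCHC8 minus YTHDC1 and 1.82 for ZCCHC8 minus METTL3, all past the threshold, and changed no other call of Eras or Pcsk1n among the reported values, each of which was refitted with it where a fit was made. Alternatives for the ratio at 0 min and for labelled and unlabelled Pcsk1n in the ZCCHC8 line were chosen after seeing the data. Unlabelled Pcsk1n did not pass with a pseudocount of 0.1 (-0.46) or at 0 min alone (-0.73), and labelled Pcsk1n stood at 0.22 at 0 min alone, of the opposite sign. By T-to-C rate the Ctrl slope of Eras was -0.21 per h in the YTHDC1 line, now past the threshold, and -0.0395 in the ZCCHC8 line, of the opposite sign.

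Leaving out 1 replicate, the read response of Eras lay at 0.20 to 0.32 for YTHDC1 and -0.48 to -0.32 for ZCCHC8, and Eras lay at 0.12 to 0.33 for labelled RNA in the YTHDC1 line, at -0.555 to -0.549 for unlabelled RNA in the ZCCHC8 line, and at -0.0543 to 0.18 for the difference of slopes in the YTHDC1 line. Its response differed by 1.90 to 2.00 for METTL3 minus YTHDC1 and by -0.80 to -0.56 for ZCCHC8 minus YTHDC1, the latter without replicate 2 and no longer past the threshold. Its Ctrl level differed by -0.40 to -0.21 for METTL3 minus YTHDC1, -0.0723 to 0.48 for ZCCHC8 minus YTHDC1 and 0.14 to 0.88 for ZCCHC8 minus METTL3. The read response of Pcsk1n lay at -0.51 to 0.26 for METTL3 and -0.44 to -0.39 for ZCCHC8, its unlabelled response there at -0.45 to -0.43 and its Ctrl slope for ZCCHC8 at -0.0377 to 0.24 per h. The ratio of Eras at 0 min differed by -0.22 to 0.000606 in the YTHDC1 line. The response of Pcsk1n differed by -0.42 to 0.31 for METTL3 minus YTHDC1 and -0.68 to 0.0208 for ZCCHC8 minus METTL3. The Ctrl level of Pcsk1n differed by -0.96 to -0.46 for METTL3 minus YTHDC1, 0.22 to 2.54 for ZCCHC8 minus YTHDC1 and 0.68 to 3.50 for ZCCHC8 minus METTL3. The causes were not tested. The values recomputed under an alternative included numbers of genes and values without a test. Of them, 194 kept their direction and, where there was a test, their side of the threshold, with numbers of genes staying similar. Another 20 newly passed it or, as numbers of genes, grew clearly, and 13 no longer passed or, as numbers of genes, shrank clearly. The sign changed for 9. A further 1 was set apart as moved, the Eras difference of response for METTL3 minus YTHDC1. It stood at 2.00 without replicate 1 against 1.92 (SE 0.19) with both, a shift smaller than that SE. Pcsk1n, at 7 to 14 reads in replicate 1 of the METTL3 line, was limited by depth. With at least 100 reads asked of every library, Eras had no ratio fit in the ZCCHC8 line, where its lowest library held 99 reads, and Pcsk1n had none in any line. With 20 reads Pcsk1n had none in the METTL3 and YTHDC1 lines, so those alternatives gave no value.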
